A study of Mus musculus with 10 samples.

Results

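The 10 genes described here encode adhesion molecules of adherens junctions and were chosen by symbol, 10 of 26764 gene symbols in the files. They are the cadherin genes Cdh3, Cdh1, Cdh2, Cdh4, Cdh6 and Cdh11 and the catenin genes Ctnna1, Ctnna2, Ctnnd1 and Jup. The set was built around Cdh3 because its fold change in the OPC comparison is large, so that value chose the set and is given below as a description without a test. All 10 genes had a row both in the table of 19333 OPC genes and in the immune files of 22064 genes.

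Adherens junctions hold neighbouring cells together. Classical cadherins span the membrane, bind cadherins of the next cell in the presence of calcium, and carry a cytoplasmic tail on which catenins assemble. Beta-catenin or plakoglobin binds the tail and recruits an alpha-catenin, which links the complex to actin, while p120-catenin binds closer to the membrane and keeps the cadherin at the surface. Beta-catenin is also the effector of canonical Wnt signalling, and Apc is part of the complex that degrades it.

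The study sequenced RNA of 10 mouse libraries in 4 groups. 3 OPC libraries carry Olig2-Cre:Apc-fl/fl, in which Cre acts in cells that express Olig2, and 3 carry Apc-fl/fl without Cre and serve as wild type. These oligodendrocyte precursor cells were immunopanned from littermates and cultured for 3 days with PDGFAA. 1 library of sorted CD4+ cells labelled Th1 and 3 libraries of CD11b+Gr-1+NK1.1+ cells, named cytotoxic macrophages by the submitters, come from spinal cord on day 18 of experimental autoimmune encephalomyelitis (EAE, an induced autoimmune disease of the central nervous system) in Pdgfra-CreER:Apc-fl/fl mice. CreER needs tamoxifen to act, and the labels used here state neither such a treatment nor the ages of the mice. Both alleles of Apc are floxed in all 4 groups, and the immune groups have no control without Cre.

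The library labelled Th1 held 3051721 rounded estimated reads, against between 23174904 and 23564216 in the macrophage libraries. The OPC comparison is known only from the authors' deposited table, which gives 1 fold change for each gene and no value per library, so the depth and spread of single OPC libraries are unknown. Its numerator is not named. Its sign was set so that the Wnt targets Notum, Sp5, Lef1 and Axin2 are positive, taken as Apc-deleted over wild type, and their direction is therefore no independent evidence. Of 9 listed OPC markers, all measured, 1 was called higher (Matn4) and 2 lower (Gpr17 and Neu4), while the neuronal tubulin gene Tubb3 reached a mean of 122255 normalized counts, against 2251 for the OPC receptor gene Pdgfra, both in the authors' deposited table. The labels do not say whether the libraries of a group came from separate animals, so p-values and SDs may measure technical spread.

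Because the cadherins are paralogs, their coding sequences were searched for stretches that could let reads of Cdh3 be counted for a sister gene. Untranslated parts of the genes were not searched, and all exons of Cdh3 together span 4384 bases. In the GENCODE M21 transcripts (GRCm38), none of the 2436 windows of 31 bases in the 2466 coding bases of Cdh3 occurred in a transcript of another gene, on either strand. The same held for Cdh1, Cdh2, Cdh4 and Cdh6. The longest run of identical bases that Cdh3 shared was 23 with Cdh2, against 17 with Cdh4, 16 with Cdh1 and 12 each with Cdh6 and Cdh11. The runs with Cdh1 and Cdh4 are shown, 5′ to 3′ on the coding strand, as examples of how short the identical stretches are, with the identical run in capitals. The longer run with Cdh2 is not shown.
Cdh3, exon 5 (chr8:106536827-106536882, plus strand): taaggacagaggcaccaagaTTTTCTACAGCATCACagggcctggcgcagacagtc
Cdh1, exon 5 (chr8:106653775-106653830, plus strand): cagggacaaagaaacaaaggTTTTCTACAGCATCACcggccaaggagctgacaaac
Cdh3, exon 16 (chr8:106555257-106555313, plus strand): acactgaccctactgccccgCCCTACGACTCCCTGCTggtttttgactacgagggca
Cdh4, exon 16 (chr2:179895728-179895784, plus strand): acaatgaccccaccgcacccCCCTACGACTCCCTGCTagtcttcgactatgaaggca
The exon 16 stretch of Cdh3 covers coding positions 2276 to 2332 of 2466, near the end of the part that encodes the cytoplasmic tail.

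The other 5 genes share windows with other genes, Ctnna1 12 of 2688, Ctnna2 5 of 2868 and Jup 2 of 2205. Ctnna1 and Ctnna2 share 5 of these with each other. For Ctnnd1, 2778 of 2871 coding windows, or 96.8%, also occur in Gm28635, a protein-coding annotation that overlaps Ctnnd1 on chromosome 2 and was not analysed here. For Cdh11, 334 of 2358 windows, or 14.2%, occur in other genes, among them 6820431F20Rik. Counts of Ctnnd1, and to a smaller extent those of Cdh11, are therefore uncertain, since no source used here names the counting tool.

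Cdh3 encodes P-cadherin, a type I cadherin of placenta and basal epithelial layers (chromosome 8, 106510891 to 106557297). The authors' deposited table put it at 3.67 on the log2 scale (SE 0.50), or 12.8-fold higher in Apc-deleted than in wild-type OPC cultures. The 95% interval computed from that SE runs from 6.49-fold to 25.0-fold. Its mean was 73.2 normalized counts in the authors' deposited table. If each genotype contributed the same number of libraries and the fold is the ratio of their means, this corresponds to 136 normalized counts in Apc-deleted and 10.6 in wild-type cultures. Among all genes of the authors' deposited table it ranked 6 by p-value and 12 by fold change.

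The other 9 genes were not called. The call rule is an adjusted p under 0.05, which 0.393% of genes met in the higher and 0.155% in the lower direction in the authors' deposited table. Since the comparison also chose the set, nothing is read from the count of 1 among 10. In log2 fold changes from the authors' deposited table, the median of the other 9 genes was 0.02, against 0.00 over all 19333 genes, with 5 pointing higher and 4 lower. For 8 of the 9 the 95% interval lay wholly inside a 2-fold change in either direction.

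**Figure D1:**
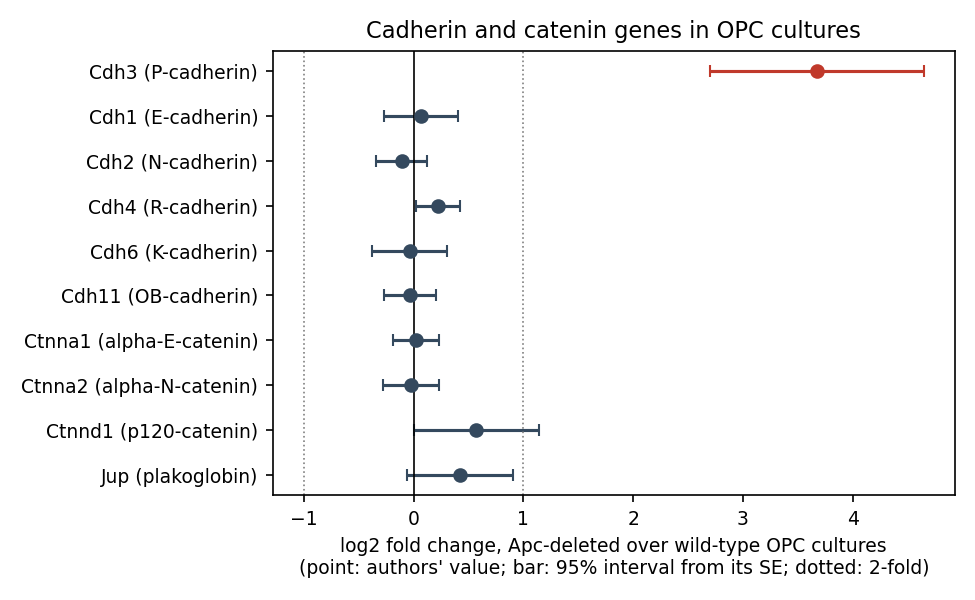
Log2 fold change (x axis) of each of the 10 genes in Apc-deleted over wild-type OPC cultures, as deposited and turned in sign, with the 95% interval from its SE as a bar and 2-fold marked by dotted lines. Cdh3 stands at 3.67 (red), Ctnnd1 at 0.57 with the upper end of its interval past 2-fold, and the remaining 8 within 2-fold.

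Among the type I cadherins, Cdh1 (E-cadherin, the epithelial cadherin) is the sister nearest to Cdh3 in the genome. The authors' deposited table put it at 0.07 (SE 0.17), and its interval allows between 0.831-fold and 1.33-fold. In the authors' deposited table Cdh2, the N-cadherin of neural cells, had -0.11 (SE 0.12), with an interval from 0.791-fold to 1.09-fold. The value of Cdh4, the R-cadherin first described in retina, in the authors' deposited table was 0.22 (SE 0.10). It was the 1 gene of these 9 whose interval, 1.01-fold to 1.34-fold, left out no change, with an unadjusted p of 0.0319 and, after adjustment, 0.999993, both from the authors' deposited table. As a description, the lower bound of Cdh3 is 6.49-fold and the highest upper bound of the other 9 genes, that of Ctnnd1, is 2.20-fold in the authors' deposited table.

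The type II cadherins, a related group with a different adhesive interface, lay close to 0. Cdh6 (K-cadherin, of kidney and neural tube) was at -0.04 (SE 0.18) and Cdh11 (OB-cadherin, of mesenchymal cells) at -0.03 (SE 0.12) in the authors' deposited table. Their intervals span 0.769-fold to 1.24-fold and 0.831-fold to 1.15-fold.

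The alpha-catenins, which tie the cadherin complex to actin, lay nearest to 0. Ctnna1 was at 0.02 (SE 0.11) and the neuronal form Ctnna2 at -0.02 (SE 0.13) in the authors' deposited table, with intervals of 0.878-fold to 1.17-fold and 0.823-fold to 1.18-fold. The catenins that bind cadherin tails had the largest values after Cdh3. Ctnnd1, which encodes p120-catenin, was at 0.57 (SE 0.29) with an unadjusted p of 0.0502 in the authors' deposited table, and its interval reaches 2.20-fold. Jup, which encodes plakoglobin, the relative of beta-catenin that also serves in desmosomes, was at 0.42 (SE 0.25) with an unadjusted p of 0.0873 in the authors' deposited table, and its interval reaches 1.87-fold. An increase of that size in either gene can therefore be neither shown nor left out.

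**Figure D2:**
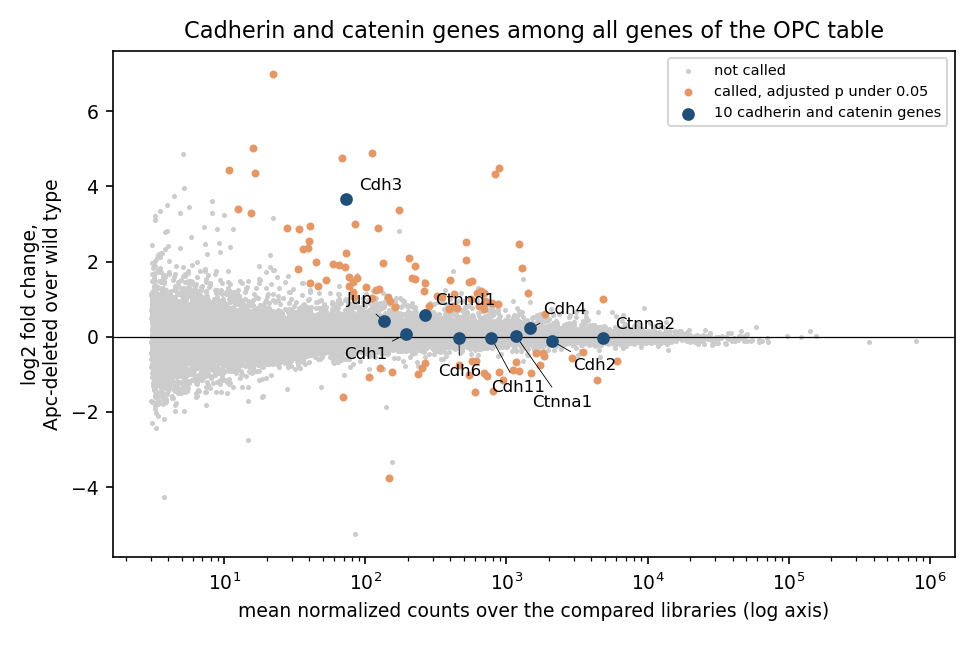
Mean normalized counts (x axis, log) against log2 fold change in Apc-deleted over wild-type OPC cultures (y axis) for all genes of the deposited table, with called genes in orange and the 10 cadherin and catenin genes in blue. Cdh3 lies at a mean of 73.2 and a log2 fold change of 3.67, apart from the other 9, which are spread along the 0 line between means of 135 and 4804.

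Levels can be set side by side once divided by exon length (merged exons of GENCODE M21). On that scale Ctnna2 led with 691 normalized counts per kilobase in the authors' deposited table, then came Cdh2 with 260, Cdh4 with 204 and Ctnna1 with 181. Cdh11 followed with 87.8, Cdh6 with 51.0, Cdh1 with 42.6, Ctnnd1 with 35.9, Jup with 21.03 and Cdh3 with 16.7 normalized counts per kilobase in the authors' deposited table. Without values per library, neighbours in this order cannot be separated by their spread. Under the equal-library reading given above, Cdh3 would stand at 30.95 per kilobase in Apc-deleted cultures, above Jup at 24.1. In wild-type cultures it would stand at 2.43, the lowest of the 10, against 18.0 for Jup. In the same cultures all 8 listed neuron markers lay between 1195 and 65447 normalized counts per kilobase in the authors' deposited table. The part of neurons in the levels of Ctnna2 and Cdh2, which neurons also express, was not tested.

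Cdh1 begins 46.1 kb beyond the end of Cdh3 on the same strand. Of 6 measured genes within 250 kb of Cdh3, chosen by position alone, none was called in the authors' deposited table. Besides Cdh1 these were Gm10073 at -0.22 (SE 0.38), Tango6 at -0.08 (SE 0.16), Zfp90 at 0.31 (SE 0.42), Smpd3 at -0.18 (SE 0.10) and Gm10629 at 0.30 (SE 1.39) in the authors' deposited table. As a description, since the value of Cdh3 chose the set, the 95% intervals of these genes lay below that of Cdh3 except for Gm10629. That gene had a mean of 3.20 normalized counts and a log2 interval of -2.43 to 3.03 computed from the authors' deposited table.

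The wider junction was described with 10 gene lists, chosen with earlier results of these data known. They hold 105 genes, of which 94 were measured and 0 were called in the authors' deposited table, where 0.548% of all genes were called in either direction. An unadjusted p under 0.05 was held by 4 of the 94, against 3.63% of all genes in the authors' deposited table. In log2 fold changes from the authors' deposited table their median was -0.04, with 37 pointing higher and 57 lower, against 0.00 over all genes. Over all genes 9726 pointed higher and 9607 lower in the authors' deposited table. A tilt to lower was not particular to junction genes. All 8 neuron, all 7 oligodendrocyte and 6 of 7 astrocyte markers also pointed lower, while all 6 measured macrophage and monocyte markers pointed higher.

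By list, the 12 further classical and type II cadherins had a median of -0.0048, and the smallest p was that of Cdh24 at -0.99 (SE 0.63) in the authors' deposited table. The 13 measured atypical cadherins had a median of -0.08, led by the giant cadherin gene Fat4 at -0.19 (SE 0.15) in the authors' deposited table. Of 10 delta protocadherins, adhesion molecules enriched in the nervous system, 9 pointed lower at a median of -0.08, led by Pcdh8 at -0.22 (SE 0.16) in the authors' deposited table. Of the 9 other measured catenins and p120 relatives 8 pointed lower, and the smallest p was that of the alpha-catenin relative Ctnnal1 at -0.31 (SE 0.14) in the authors' deposited table. In that list Ctnnb1, which encodes beta-catenin, stood at -0.17 (SE 0.12) in the authors' deposited table.

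Nectins are adhesion molecules that start junctions together with cadherins, and Nectin1 had the smallest p of its list of 5 at 0.46 (SE 0.20) in the authors' deposited table. Of the 12 actin linkers 6 pointed each way, led by the LIM protein gene Limd1 at 0.64 (SE 0.26) in the authors' deposited table. Desmosome genes had a median of -0.14 over 8 measured, led by Evpl at -0.43 (SE 0.33), and tight junction genes a median of -0.06 over 14, led by Tjp3 at -1.26 (SE 0.68) in the authors' deposited table. The 5 measured repressors of cadherin genes and factors of epithelial-mesenchymal transition had a median of 0.11, led by Twist2 at 1.02 (SE 0.87) from a mean of 5.38 normalized counts in the authors' deposited table. Zeb1 and Zeb2, repressors of Cdh1 in epithelia, stood at 0.11 (SE 0.12) and -0.09 (SE 0.17) in the authors' deposited table. Among 6 measured genes of cadherin shedding and turnover the protease gene Ctsb had the smallest p at 0.51 (SE 0.18), which the authors' deposited table lists with an adjusted value of 0.400.

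**Figure D3:**
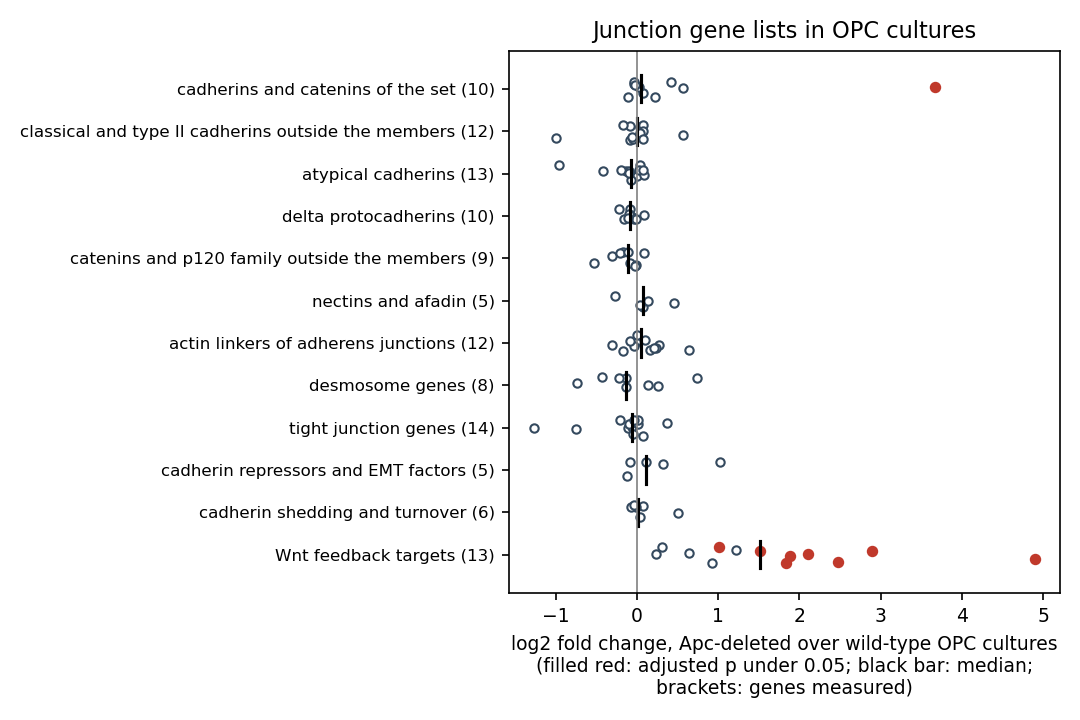
Log2 fold change in Apc-deleted over wild-type OPC cultures (x axis) for each measured gene of the set, of the 10 junction lists and of 13 Wnt feedback targets (rows), with called genes filled red and medians as black bars. The 94 genes of the junction lists hold no called gene, while Cdh3 and 8 of the 13 Wnt feedback targets, some of which set the sign, are called.

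The Wnt feedback targets are given beside Cdh3 for scale. All 13 pointed higher and 8 were called, with a median of 1.51 in the authors' deposited table, though 4 of them fixed the sign. Notum, which encodes an enzyme that inactivates Wnt ligands, stood at 4.90 (SE 0.49), Rnf43, a ligase gene that removes Wnt receptors, at 2.89 (SE 0.39), and Axin2 at 1.01 (SE 0.20) in the authors' deposited table.

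The 5 called genes nearest to Cdh3 in fold change were Irf5, Lgals3, C5ar1, Lyz2 and Ascl4, at 3.41, 3.38, 3.28, 4.33 and 3.01 in the authors' deposited table. The likeness is the difference in 1 fold change and not a profile over samples. Of these, Irf5, Lgals3, C5ar1 and Lyz2 are known from macrophages, and Ascl4 encodes a bHLH transcription factor. The SE of a gene was divided by the median SE of 200 genes of similar mean, so that a value above 1 marks a larger SE than usual for that mean. Few counts in 1 genotype can also raise it, and Cdh3 had 10.6 in wild-type cultures under the equal-library reading. A value above 1 therefore does not by itself show wider spread between libraries. This relative SE was 1.87 for Cdh3 and 1.69 for Ascl4, against 4.63 for Lgals3 and 7.12 for Lyz2, while Irf5 and C5ar1 lay at 1.65 and 1.64. For the Wnt targets Notum and Rnf43 it was 2.16 and 1.77, which are examples and not the range of the Wnt targets. Nkd1, also called, had an SE of 0.50 at a mean of 1234 normalized counts in the authors' deposited table. Tjp1 had an SE of 0.14 at a mean of 1244 there. Among the other 9 genes of the set it ranged between 0.794 for Cdh4 and 1.71 for Ctnnd1.

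**Figure D4:**
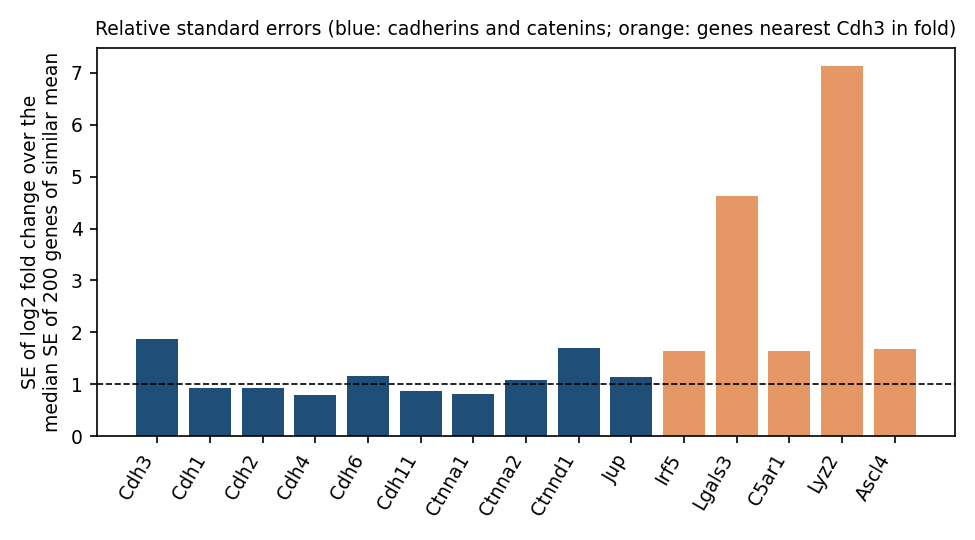
SE of the log2 fold change relative to the median SE of 200 genes of similar mean (bars, y axis from 0; dashed line at 1) for the 10 cadherin and catenin genes (blue) and the 5 called genes nearest to Cdh3 in fold (orange). Cdh3 has 1.87, below Lgals3 with 4.63 and Lyz2 with 7.12 and above Ascl4 with 1.69, Irf5 with 1.65 and C5ar1 with 1.64.

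Macrophage and monocyte markers pointed in the same direction as Cdh3. Of 8 listed macrophage and monocyte markers 6 were measured and all 6 pointed higher, with Lyz2 and Cd68 (1.54, SE 0.36) called. Of those not called, Adgre1 stood at 1.87 (SE 0.65) and Csf1r, Mertk and Fcgr1 at 0.01, 0.00 and 0.05 in the authors' deposited table. Cdh3 itself had no read among the 70213274 of the sorted macrophage libraries, a count of 0 that allows up to 0.0427 reads per mapped megaread (CPM) over the 3 libraries. Those libraries also stand apart from their label, since 8 neutrophil markers summed to between 433539 and 436626 TPM in them and 8 macrophage and monocyte markers to between 29070 and 29625 TPM. In the OPC cultures all 8 neutrophil markers pointed lower at a median of -0.30, microglia markers split 3 higher and 3 lower, and no neutrophil or microglia marker was called in the authors' deposited table. The microglia markers with an unadjusted p under 0.05 there were Tmem119 at 0.87 (SE 0.31) and Sall1 at 0.85 (SE 0.26). The lowest microglia marker was P2ry12 at -0.21 (SE 0.31). The part of such cells in the OPC cultures' Cdh3 value was not tested. Of 6 measured markers of epithelium and choroid plexus, tissues rich in cadherins, 4 pointed lower, with Epcam at -0.68 (SE 0.30) and none called in the authors' deposited table. Meningeal and perivascular fibroblast markers had a median of -0.07 over 10 genes and none was called in the authors' deposited table. In bulk cultures a change in the share of a cell type and a change in RNA per cell cannot be told apart.

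In the sorted immune libraries most of the set was blank or barely detected. Cdh4, Cdh6 and Ctnna2 were blank in all 4 files, and Cdh3 was blank in the macrophage files. A blank was taken as 0, since no gene listed in the macrophage files was at 0 in all 3. 4 of the 10 genes reached 0.1 TPM in every macrophage library. TPM, transcripts scaled by length and to a common sum, allows levels of different genes to be compared.

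Ctnna1 was the highest of the set in the macrophage libraries, at 2.25, 1.98 and 2.11 TPM (mean 2.11 ± 0.14, SD, n = 3). Cdh11 had 0.40, 0.44 and 0.39 TPM (mean 0.41 ± 0.026, SD, n = 3). Jup had 0.30, 0.26 and 0.29 TPM (mean 0.283 ± 0.021, SD, n = 3), and Ctnnd1 0.13, 0.17 and 0.18 TPM (mean 0.16 ± 0.026, SD, n = 3). The ranges of neighbours in this order of 4 did not overlap, so the order was the same in all 3 libraries. Cdh1 and Cdh2 had 1 read each, both in the third macrophage file.

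Of 10 catenin and p120 family genes outside the set, Ctnnbip1 and Ctnnb1 exceeded Ctnna1, and 4 were at 0 TPM in all macrophage libraries. Ctnnbip1, an inhibitor of beta-catenin, averaged 4.32 ± 0.14 TPM and Ctnnb1 3.08 ± 0.12 TPM in the macrophage libraries (SD, n = 3). The actin linkers were the most abundant of the structural lists, with Zyx at 95.7 ± 3.9 and Vasp at 29.9 ± 1.4 TPM (SD, n = 3). The tight junction gene F11r, whose product JAM-A leukocytes also carry, averaged 9.17 ± 0.46 TPM (SD, n = 3). Zeb2 and Snai1, repressors of Cdh1, averaged 2.03 ± 0.13 and 1.94 ± 0.26 TPM in the macrophage libraries (SD, n = 3). Of the shedding and turnover list, Ctsb averaged 137 ± 1.0 TPM and the recycling GTPase gene Rab11a 44.9 ± 0.69 TPM (SD, n = 3). The 2 highest of each remaining list were lower. The atypical cadherin genes Clstn1 and Celsr3 averaged 0.18 and 0.17 TPM, Afdn and Nectin4 of the nectin list 0.663 and 0.287 TPM, and the claudin gene Cldn1 0.217 TPM. The desmosome genes Perp and Dsp averaged 0.047 and 0.0033 TPM, the protocadherin genes Pcdh17 and Pcdh7 0.01 and 0.0067 TPM, and the cadherin genes Cdh24 and Cdh5 0.017 and 0.0067 TPM. None of the 12 further classical and type II cadherins reached 1 TPM, and 10 of them stood at 0 TPM in all macrophage libraries.

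In the library labelled Th1, 3 genes of the set exceeded 3 reads, namely Cdh1 with 16, Jup with 10 and Ctnna1 with 8. Cdh3 had 2 reads there, and Cdh2 was blank. A count of 0 in that library allows up to 0.983 CPM, and intervals here cover counting error only. This library stands apart from its label, since 7 of 8 listed T cell markers had no read and the remaining one, Lck, had 66.3 TPM. In the same library the 8 neutrophil markers summed to 24391 TPM and the 8 macrophage and monocyte markers to 11268 TPM.

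**Figure D5:**
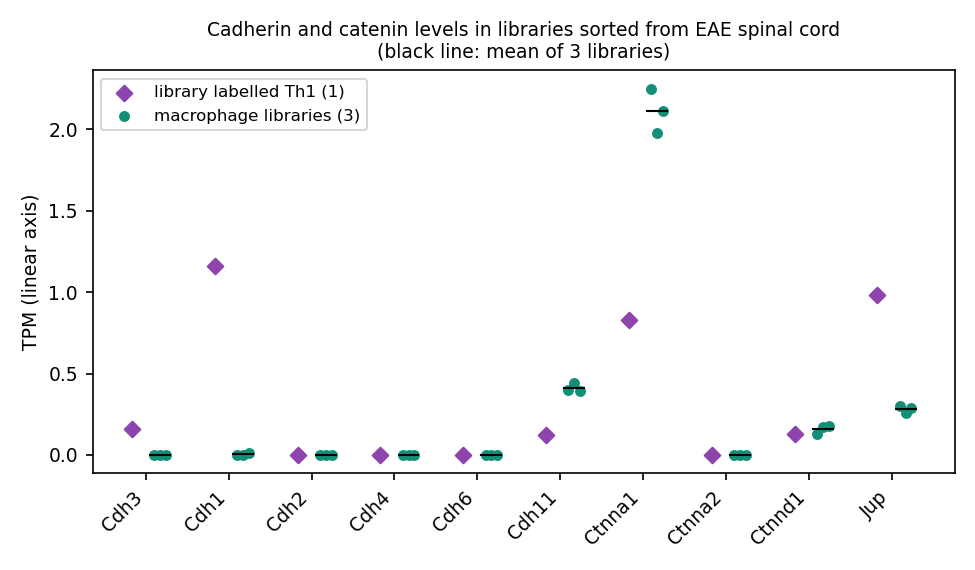
TPM (y axis, linear) of the 10 cadherin and catenin genes in the library labelled Th1 (purple diamond, 1 library) and in the macrophage libraries (green points, 3 libraries, black line at their mean). In TPM, Cdh1 and Jup are higher in the library labelled Th1, Ctnna1 and Cdh11 in the macrophage libraries, and the other genes lie near 0. The counting interval of the CPM ratio of Jup includes no difference.

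Cdh1 had 16 reads (1.16 TPM) in the library labelled Th1, against 0, 0 and 1 reads in the macrophage libraries. The ratio in CPM, library labelled Th1 over macrophage, was 368 with an exact conditional 95% interval from 57.2 to 15437. Cdh1 entered the edgeR test below only through its reads in the library labelled Th1, so its call there is not given as support.

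Differences were tested with edgeR's quasi-likelihood test and Benjamini-Hochberg adjustment over 11447 genes, and the single library is assumed to vary like the macrophage libraries. A gene was called with at least 4-fold and an adjusted p below 0.05, which covered 13.7% of tested genes in the higher and 54.6% in the lower direction, 1567 and 6245 genes. The median log2 fold change of all tested genes was -5.61. With DESeq2 size factors the same edgeR test gave 1964 higher and 3744 lower, and DESeq2's own Wald test gave 1894 higher and 2745 lower. 5 genes of the set passed the count filter, of which Cdh1 and Jup were called higher and 0 lower, beside a background in which most genes are called.

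Jup had 10 reads (0.98 TPM) in the library labelled Th1, against 46, 44 and 44 reads in the macrophage libraries, or 3.28 against 1.91 CPM. Its CPM ratio was 1.72 with a counting interval from 0.805 to 3.26, which includes no difference. The edgeR log2 fold change was 2.27 with an adjusted p of 0.000736 after TMM scaling. With library totals alone it was 0.78 with an adjusted p of 0.135 by edgeR, so this call rests on the scaling.

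Ctnna1 went the other way in reads, with 8 reads (2.62 CPM) in the library labelled Th1, against 356, 321 and 339 reads (14.5 CPM pooled) in the macrophage libraries. Its CPM ratio was 0.181 with a counting interval from 0.078 to 0.358. The edgeR log2 fold change was -0.97 with an adjusted p of 0.0509, and with DESeq2 size factors it was 0.38, so its direction depends on the scaling. Cdh11 had 2 reads in the library labelled Th1, against 90, 101 and 89 in the macrophage libraries, and its edgeR log2 fold change of -1.11 (adjusted p = 0.246) turned to 0.24 with DESeq2 size factors. Ctnnd1 had 2.99 estimated reads in the library labelled Th1, against 40.9, 50 and 49.8 in the macrophage libraries, with an edgeR log2 fold change of 0.46 (adjusted p = 0.618) that turned to -1.03 with library totals.

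Epithelial markers stood beside Cdh1 in the library labelled Th1, as did some neuron markers. Of 8 listed epithelial and choroid plexus markers 4 exceeded 3 reads there, Krt8 with 30.2 TPM, Krt18 with 36.5, Krt19 with 6.5 and Epcam with 4.53. In the macrophage libraries Krt8 and Krt19 were at 0 TPM and Krt18 and Epcam averaged 0.043 and 0.0033 TPM. The summed list reached 78.5 TPM in the library labelled Th1, against 189 to 195 TPM in the macrophage libraries. Most of the macrophage sum is Ttr, a choroid plexus transcript at 192 ± 2.9 TPM (SD, n = 3), which had no read in the library labelled Th1. Folr1 and Foxj1 also had none there. Neuron markers summed to 21.1 TPM in the library labelled Th1, against 0.11 to 0.19 TPM in the macrophage libraries. Of 8 listed, Tubb3 had 19.25 TPM and Syt1 1.83 TPM in the library labelled Th1, and 6 had no read there. The part of epithelial, neural or other cells in the Cdh1 reads was not tested.

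Of the 105 genes of the 10 junction lists, 39 passed the count filter, 6 were called higher and 16 lower by edgeR in the library labelled Th1 over the macrophage libraries. Over all tested genes 13.7% were called higher and 54.6% lower, so nothing about junction genes is read from these counts. The 6 higher were Pkp4, Afdn, Ctsb, Perp, Ctnnal1 and Nectin2. The 16 lower included Zyx with 0.33 TPM in the library labelled Th1, Vasp with 0.29, F11r with 0.93 and Ctnnb1 with 0.28, against the macrophage means given above. Ctsb had 1362 TPM in the library labelled Th1, against 137 ± 1.0 TPM in the macrophage libraries (SD, n = 3). Pkp4, a p120-catenin relative, had 94.3 TPM there, against a mean of 0.247 ± 0.012 TPM in the macrophage libraries (SD, n = 3). Afdn, the actin adaptor of nectins, had 15.3 TPM in the library labelled Th1, against a mean of 0.66 ± 0.025 TPM in the macrophage libraries (SD, n = 3). Perp had 9 reads and Ctnnal1 and Nectin2 had 3 each in the library labelled Th1. Perp averaged 0.157 CPM in the macrophage libraries and, like Cdh1, entered the test only through the library labelled Th1. Its call is therefore not given as support. Ctnnal1 and Nectin2 had 0.983 CPM each in the library labelled Th1, against 0.456 and 0.455 CPM in the macrophage libraries. Their log2 fold change of 2.59 came after TMM scaling, so these calls rest on the scaling. Pkp4 and Nectin2 are named here after their values were seen.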

How the data were processed

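RNA-seq values were used as the authors deposited them. The genome build was GRCm38, per the submitters' processing notes; aligner and counter: not given in the sources used here. Per the file headers, the OPC table holds a mean signal of normalized counts, a log2 fold change with SE, a test score, p-values and adjusted p-values of the authors' comparison. Per the file headers, the immune files hold TPM and estimated counts of the authors, which were rounded, with blanks as 0. Between 79.8% and 85.6% of estimated counts per library were exactly whole. 8 other columns per sample were not used. The macrophage column codes match no label and were assigned to the group only.

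OPC intervals are the deposited log2 value ± its SE times the normal quantile for 95%. Exon lengths and sequences come from GENCODE M21; 2 of the 10 gene identifiers differ from it in version only. Immune libraries were compared with edgeR 4.0.16 (TMM, filterByExpr); DESeq2 1.42.0, R 4.3.3, Python 3.11.15, scipy 1.17.1 and matplotlib 3.10.9 were also used. The library labelled Th1 is single, so its spread was taken from the macrophage libraries. Alternatives were other scalings, DESeq2's test, no count filter, no fold minimum and leaving out each macrophage library. The design had allowed for OPC values per library; only the comparison table was used. Scripts were tested on simulated data. Genes and lists were chosen with earlier results of these data known. Named genes were all 10, each list's called genes or smallest p, and its 2 highest in macrophages. The 5 called genes nearest to Cdh3 in fold change were added.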

Additional observations from a re-analysis of the deposited data

How the results depend on the processing

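The other 9 genes of the set and the 94 measured genes of the junction lists stayed uncalled in OPC cultures, with p-values adjusted again over genes with a mean of at least 10, with Benjamini-Hochberg recomputed over all deposited p-values, at a threshold of 0.1 and with at least 2-fold. Cdh3 was past the threshold in each, which is a description, since its value chose the set. The number of all genes called lower in OPC cultures was 9 with at least 2-fold, against 30, since a fold minimum removes small changes. No paired analysis was possible because the OPC table gives no value per library, the macrophage columns carry no replicate number of the labels and Th1 is 1 library. Leaving out an OPC library was for the same reason not run.

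In the library labelled Th1 over the macrophage libraries, 3744 genes were called lower with DESeq2 size factors and 2745 with DESeq2's Wald test, against 6245, and the cause was not tested. The median log2 fold change of all tested genes was -5.61 in the main test. It moved by 1.12 with DESeq2 size factors, by 3.73 with DESeq2's own estimates, by 1.19 without the count filter and by -0.64 with library totals, the last chosen after seeing the data. With DESeq2 size factors and with its Wald test, Cdh11 turned to 0.24 in both and Ctnna1 to 0.38 in both. With library totals Ctnnd1 turned to -1.03, Jup lost its call (0.78, adjusted p = 0.135), and Cdh11 (-2.59) and Ctnna1 (-2.46) were called lower by edgeR. Without the count filter Jup was under 4-fold at 1.83, and Cdh3, with 2 reads against 0, entered the edgeR test and was called higher. Cdh3 entered only through its reads in the library labelled Th1, so its call is not given as support. The called genes of the set in that setting were Cdh1 and Cdh3. The count of called genes of the set was 2 in each setting except library totals, where it was 3. The fitted log2 fold change of Cdh1 ranged between 7.96 and 11.3 over these settings and between 9.05 and 10.9 without each macrophage library in turn, which is no support, since it entered the test only through the library labelled Th1. The count of 4 genes at 0.1 TPM in every macrophage library was the same in CPM, without blanks and without each library. The library labelled Th1 held at most 16 reads for any gene of the set, which limits what it can show.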
